A study of Homo sapiens with 32 samples.

Results

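This account concerns 10 genes of the death receptor pathway, FAS, FASLG, TNFRSF10A, TNFRSF10B, TNFSF10, FADD, TRADD, CASP8, CASP10 and CFLAR, in 4 human T-cell lines. The genes were found by their symbols among the 25559 symbols of each count table, and all 10 were among the 17801 symbols with enough counts to be tested. HH and H9 derive from cutaneous T-cell lymphoma, TLOm1 derives from adult T-cell leukemia, and PF382 represents T-cell acute lymphoblastic leukemia. Each line gave 8 libraries after 96 hours in culture: 1 untreated, 1 with romidepsin alone, 3 with azacitidine alone at increasing doses, and 3 with both drugs, azacitidine again at each of these doses. Romidepsin, an inhibitor of histone deacetylases, was given as a single addition at time 0, and azacitidine, a cytidine analogue that traps DNA methyltransferases, was added every 24 hours. Azacitidine was at 125, 250 and 500 nM in PF382 and TLOm1 and at 50, 125 and 250 nM in HH and H9. TLOm1 and H9 received romidepsin at 1 nM and PF382 at 1.25 nM, while HH received 1 nM as single drug and 1.25 nM together with azacitidine.

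Death receptors are membrane proteins whose cytoplasmic death domain starts apoptosis when a trimeric ligand binds. FAS binds the Fas ligand (FASLG), and the TRAIL receptors DR4 (TNFRSF10A) and DR5 (TNFRSF10B) bind TRAIL (TNFSF10). The adaptor FADD joins these receptors to the initiator caspases 8 and 10 (CASP8, CASP10), and TRADD is the adaptor of TNF receptor 1. CFLAR encodes c-FLIP, a relative of caspase-8 that occupies the same complex and limits its activation. T cells use FAS and its ligand to remove activated cells after an immune response, and Fas ligand is also a weapon of cytotoxic T cells.

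Total counts ran from 16175077 to 32496676 per library, and levels are given as CPM, counts scaled to 1000000 of the normalised library total. In the untreated libraries 12, 8, 9 and 12 of 12 T-cell markers had at least 10 counts in PF382, TLOm1, HH and H9, and 5 of 5 markers of immature T-ALL cells did in PF382. The summed level of 4 epithelial markers was 0.434 to 2.88 CPM in HH and ran higher in PF382 (4.74 to 132 CPM), H9 (91.4 to 185 CPM) and TLOm1 (37.5 to 217 CPM). Summed B-cell markers were highest in H9, at up to 95.8 CPM, and myeloid markers in TLOm1, at up to 11.7 CPM. Natural killer and fibroblast markers were highest in PF382, at up to 50.5 and 51.5 CPM. The part of these markers in the results was not tested. Each line is a single source of cells with 1 library per condition, so p-values measure the spread pooled over libraries of the lines, not that between cultures of a line. Changes are log2 fold changes ± a standard error, and a change is called at an adjusted p under 0.05 in edgeR's quasi-likelihood test over all genes tested. In such bulk libraries a smaller share of expressing cells and less RNA per cell cannot be told apart.

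The promoter sequences of FAS, CFLAR, TNFSF10 and FASLG are shown because azacitidine acts on methylation of CG dinucleotides and because these genes had the line-specific patterns described further on. RefSeq (GRCh38.p14) gave 13 windows for 6 of the 10 genes, and none was at hand for TNFRSF10A, TNFRSF10B, TRADD and CASP10. Each sequence below holds the 250 bases before the first listed start, 5′ to 3′ on the strand of the gene, with CG dinucleotides in capitals. The order is FAS at chr10:88990548-88990797 (plus strand), CFLAR at chr2:201118466-201118715 (plus), TNFSF10 at chr3:172523431-172523680 (minus) and FASLG at chr1:172658853-172659102 (plus).
FAS: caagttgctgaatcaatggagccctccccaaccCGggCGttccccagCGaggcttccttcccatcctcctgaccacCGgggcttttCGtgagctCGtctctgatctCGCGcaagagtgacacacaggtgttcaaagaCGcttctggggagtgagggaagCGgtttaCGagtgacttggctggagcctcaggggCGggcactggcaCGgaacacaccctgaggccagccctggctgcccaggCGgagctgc
CFLAR: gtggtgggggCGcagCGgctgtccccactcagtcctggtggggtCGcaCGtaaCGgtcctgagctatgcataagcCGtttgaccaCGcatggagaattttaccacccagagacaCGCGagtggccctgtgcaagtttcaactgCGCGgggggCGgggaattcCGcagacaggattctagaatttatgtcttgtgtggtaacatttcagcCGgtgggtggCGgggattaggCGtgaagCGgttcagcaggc
TNFSF10: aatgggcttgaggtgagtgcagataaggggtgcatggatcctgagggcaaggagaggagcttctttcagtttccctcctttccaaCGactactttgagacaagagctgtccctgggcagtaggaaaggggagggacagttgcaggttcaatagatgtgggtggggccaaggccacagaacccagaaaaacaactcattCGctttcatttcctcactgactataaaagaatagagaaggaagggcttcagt
FASLG: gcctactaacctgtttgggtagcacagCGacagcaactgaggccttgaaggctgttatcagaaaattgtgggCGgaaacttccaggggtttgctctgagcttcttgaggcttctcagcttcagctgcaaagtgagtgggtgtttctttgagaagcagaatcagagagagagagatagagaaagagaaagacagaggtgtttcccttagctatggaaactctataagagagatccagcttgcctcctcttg
The FAS window shown held 14 CG dinucleotides and the CFLAR window shown 17, against a median of 11 over 35116 windows of this length. The other listed windows held 11 and 19 for FAS and 0, 0 and 22 for CFLAR. The TNFSF10 and FASLG windows held 2 each, and 14.7% of all windows held fewer. The motif GGGCGG, searched on both strands and containing a CG itself, was found in the FAS, CFLAR and FASLG windows shown and in 42.6% of all windows. TATAAA was found in the TNFSF10 window and in 10.7% of all windows, and TGACTCA in none of the 4 shown and in 4.2% of all windows. FADD had 32 CG dinucleotides in its window, and the 3 windows of CASP8 had 5 or 6. These matches describe letters and say nothing on binding or methylation, which were not measured here.

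The level of each of the 10 genes differed between the lines, as did that of 98.1% of all genes tested, so the count of 10 is close to the background. FAS was at a median of 112 CPM in H9 (lowest 83.8, highest 135), 84.3 CPM in TLOm1 (32.5 to 135), 18.4 CPM in HH (11.4 to 24.3) and 7.89 CPM in PF382 (6.30 to 9.37). H9 and TLOm1 were not distinguished in FAS level (0.23 ± 0.16, adjusted p = 0.192), and each had higher FAS than HH and PF382 in 8 of 8 libraries. FASLG was detected at depth only in H9, at a median of 6.76 CPM (lowest 4.25, highest 14.6), from 1705 counts in its 8 libraries. TLOm1 and HH had 8 and 7 FASLG counts in all, and PF382 had 0, where 3 counts would have been 0.129 CPM in its shallowest library. Fas ligand transcript was thus measurable in 1 of 4 lines, and its receptor in all of them.

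Of the TRAIL receptors, TNFRSF10A (DR4) was ordered H9, TLOm1, PF382 and HH. Its median was 28.9 CPM in H9 (26.8 to 33.1), 8.67 CPM in TLOm1 (7.27 to 10.1), 0.808 CPM in PF382 (0.588 to 1.66) and 0.164 CPM in HH (0 to 1.07, 50 counts in 8 libraries). TNFRSF10B (DR5) had another order, with HH at a median of 143 CPM (132 to 164), TLOm1 at 79.3 CPM (67.7 to 91.6), H9 at 41.2 CPM (32.4 to 45.9) and PF382 at 19.7 CPM (13.3 to 52.8). HH thus had the highest DR5 and the lowest DR4 transcript of the 4 lines. TNFSF10, which encodes the ligand TRAIL, was at 114 CPM in H9 (88.9 to 132), 20.6 CPM in TLOm1 (11.2 to 28.9), 10.9 CPM in HH (8.31 to 13.2) and 3.61 CPM in PF382 (2.25 to 5.44). H9 stood highest for both ligands, and its lowest TNFSF10 library was above the highest library of any other line.

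FADD, the shared adaptor, varied least between lines, from a median of 22.7 CPM in HH to 36.5 CPM in H9, with TLOm1 at 35.0 and PF382 at 28.9 CPM. H9 and TLOm1 were not distinguished in FADD (0.07 ± 0.06, adjusted p = 0.316). TRADD was at 33.4 CPM in HH (27.0 to 36.4), 27.0 CPM in TLOm1 (17.9 to 35.2), 18.5 CPM in H9 (15.4 to 19.4) and 12.7 CPM in PF382 (9.76 to 14.6). CASP8 was at a median of 100 CPM in TLOm1 (88.3 to 136), 80.1 CPM in HH (74.3 to 93.7), 39.9 CPM in PF382 (35.5 to 46.3) and 23.3 CPM in H9 (20.3 to 26.1). CASP10 was highest in H9 at 19.7 CPM (15.6 to 22.4), followed by TLOm1 at 13.0 CPM (11.3 to 21.1) and PF382 at 8.51 CPM (7.37 to 10.4). HH had 1.79 CPM of CASP10 (0.193 to 5.62), the widest relative range of these caspases in any line.

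CFLAR, the inhibitor, was at 118 CPM in HH (79.1 to 185), 111 CPM in TLOm1 (94.7 to 142), 44.5 CPM in H9 (38.4 to 48.3) and 34.0 CPM in PF382 (25.6 to 40.5). HH and TLOm1 were not distinguished in CFLAR (0.02 ± 0.13, adjusted p = 0.873). Between pairs of lines the 10 genes gave 9 calls for TLOm1 against PF382 (81.3% of all genes called), 10 for HH against PF382 (79.1%) and 10 for H9 against PF382 (75.7%). They gave 8 for HH against TLOm1 (71.5%), 7 for H9 against TLOm1 (78.7%) and 10 for H9 against HH (77.8%). CASP10 was not called between TLOm1 and PF382 (0.67 ± 0.33, adjusted p = 0.0626) or between H9 and TLOm1 (0.63 ± 0.36, adjusted p = 0.11), nor FASLG between HH and TLOm1, where both had few counts. The FASLG calls of TLOm1 and HH against PF382 rest on those 8 and 7 counts against 0.

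**Figure D1:**
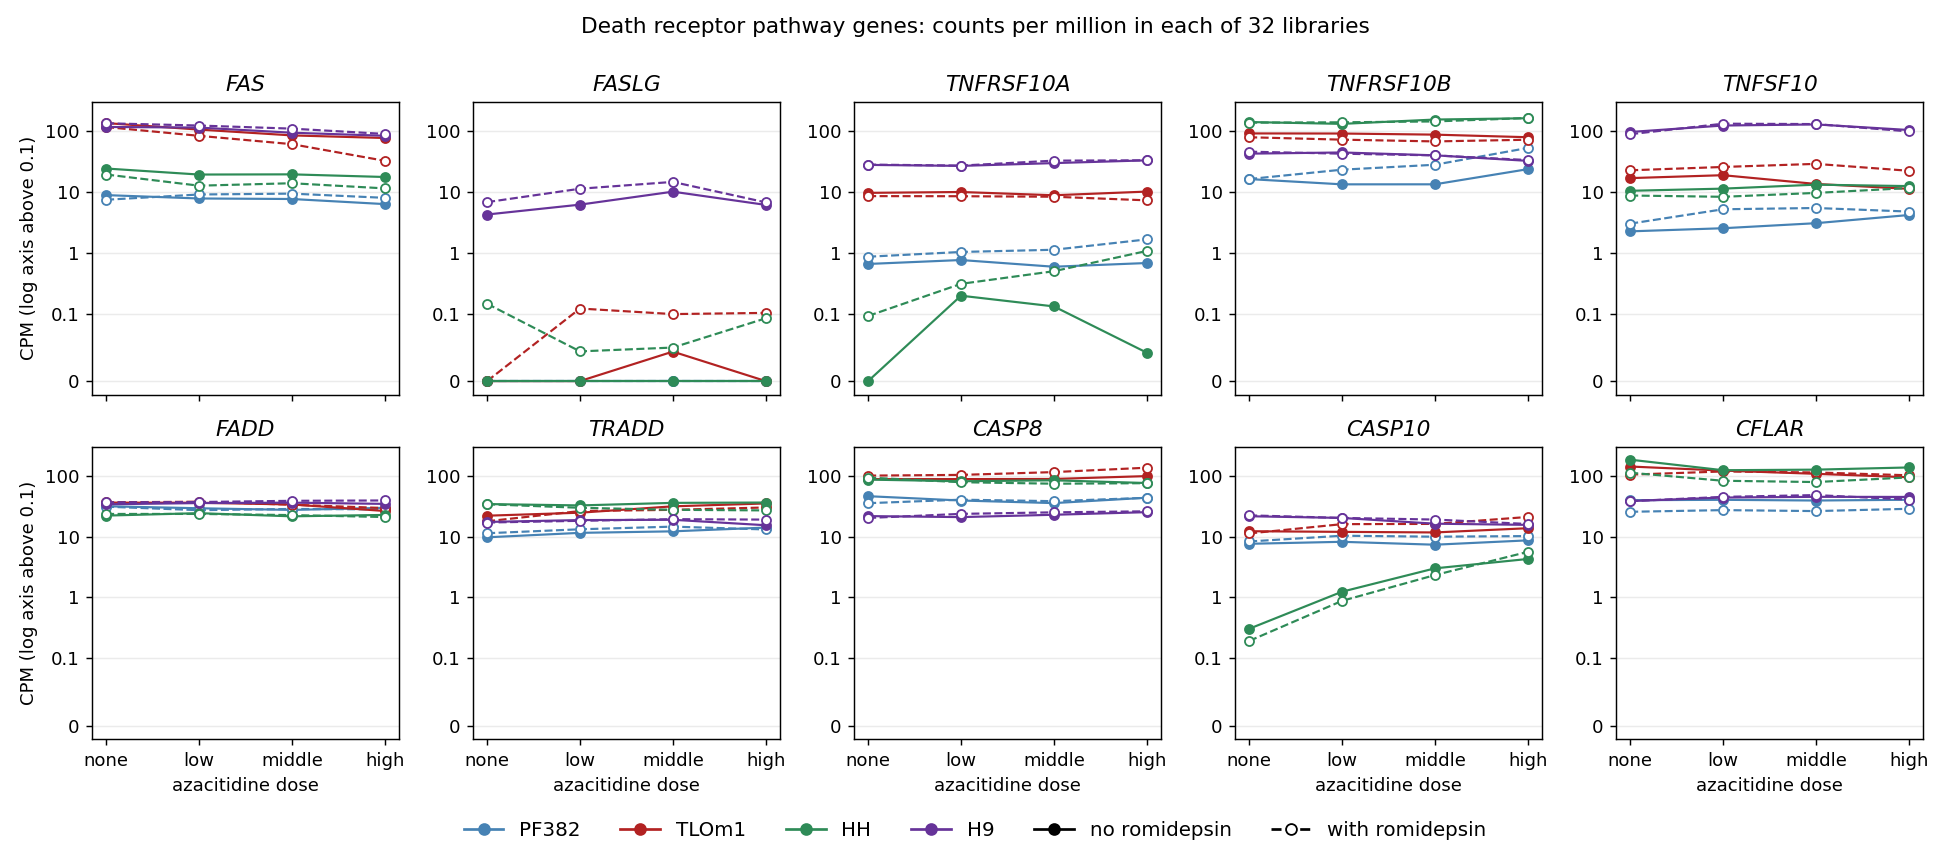
Level of each gene in each of the 32 libraries, as CPM on a log axis (linear below 0.1), against the azacitidine dose in order within a line (none, low, middle, high). Colours are lines, filled points and solid lines are libraries without romidepsin, open points and dashed lines those with it. FASLG lies between 4.25 and 14.6 CPM in H9 and at or near 0 in the other lines (PF382, at 0, lies under the HH points), and CASP10 in HH climbs from 0.193 to 5.62 CPM.

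Romidepsin changed different members in different lines. Libraries with romidepsin were compared with those without at the same azacitidine dose, 4 against 4 in each line. In HH the romidepsin dose of the pairs is not constant, being 1 nM in the pair without azacitidine and 1.25 nM in the other 3. Between lines the dose also differed, at 1.25 nM in PF382 and 1 nM in TLOm1 and H9. Line and romidepsin dose thus cannot be told apart in the test of unequal effects. FASLG, at 0 counts in PF382, had no value there. In PF382, 4 of the 10 genes were called, 3 higher and 1 lower, where 30.7% of all genes were called. In TLOm1, 4 were called, 3 higher and 1 lower (32.6% of all genes), and in HH 5, 2 higher and 3 lower (27.7% of all genes). The median change of the members was 0.15, -0.01 and -0.05 in these lines, against 0.01, 0.01 and 0.00 over all genes. In H9, 0 of 10 were called by edgeR (4.47% of all genes), 1 had an unadjusted p under 0.05, DESeq2 called 0, and limma-voom called 1, FASLG. The test of unequal romidepsin effects between lines called 6 members, FAS, TNFRSF10A, TNFRSF10B, TNFSF10, CASP8 and CFLAR, where 33.0% of all genes were called. Without the middle pair of each line the call of unequal effects ended for FAS (adjusted p = 0.0594) and CASP8 (0.17), and for CASP8 also without the low pair (0.0811) or the high pair (0.076).

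**Figure D2:**
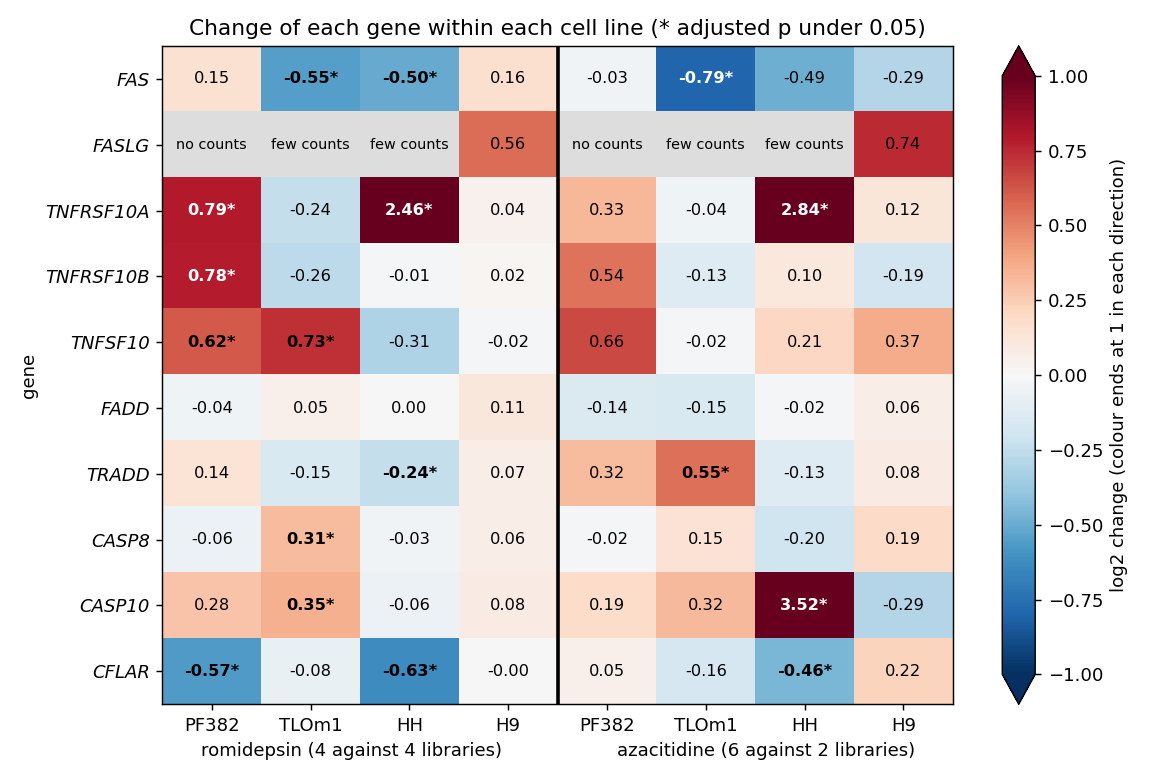
Fitted log2 change of each gene with romidepsin (left) and with azacitidine at any dose (right) in each line, with colour ending at 1 in each direction and an asterisk at an adjusted p under 0.05. FASLG is grey in the 3 lines with no or few counts. CFLAR falls with romidepsin in PF382 (-0.57) and HH (-0.63), and the largest azacitidine changes among the coloured cells are those of TNFRSF10A (2.84) and CASP10 (3.52) in HH.

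CFLAR fell with romidepsin in PF382 and HH. In PF382 it was at 39.8, 40.4, 39.3 and 40.5 CPM without romidepsin at none, low, middle and high azacitidine, and at 25.6, 27.3, 26.3 and 28.7 CPM with it, in the same order. The 2 sets of PF382 libraries did not overlap, and the change was -0.57 ± 0.08 (adjusted p = 8.33e-06). In HH, CFLAR was at 185, 124, 126 and 137 CPM without and 113, 83.0, 79.1 and 94.2 CPM with romidepsin. Each HH pair was lower with romidepsin, and the change was -0.63 ± 0.07 (adjusted p = 1.61e-06). In TLOm1 the pair without azacitidine had a log2 ratio of -0.44 and the 3 pairs with azacitidine lay between -0.05 and 0.11, for a fitted -0.08 ± 0.07 (adjusted p = 0.44). H9 pairs lay between -0.14 and 0.10 (fitted 0.00 ± 0.07, adjusted p = 1.00). The CFLAR effects were unequal between lines (adjusted p = 7.10e-05), and neither the PF382 nor the HH call ended under any of its 9 alternatives.

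TNFRSF10B, which encodes DR5, rose with romidepsin in PF382. It was at 16.2, 13.3, 13.3 and 23.7 CPM without romidepsin and at 16.3, 23.2, 28.0 and 52.8 CPM with it. The pair without azacitidine was equal (log2 ratio 0.00), and the pairs at 125, 250 and 500 nM azacitidine had ratios of 0.80, 1.07 and 1.16. The fitted change over the 4 pairs was 0.78 ± 0.12 (adjusted p = 4.67e-05), and it stayed called without any 1 pair. The other lines had -0.26 ± 0.11 (TLOm1, adjusted p = 0.064), -0.01 ± 0.10 (HH, adjusted p = 0.992) and 0.02 ± 0.11 (H9, adjusted p = 1), and the effects were unequal (adjusted p = 0.000349). TNFRSF10B in TLOm1 was called in the negative direction by limma-voom (-0.26, adjusted p = 0.028) and without the pair that had no azacitidine (-0.28, adjusted p = 0.00803).

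The other TRAIL receptor, TNFRSF10A, rose with romidepsin in PF382 and HH, at low levels in both. In PF382 it had 16, 21, 15 and 19 counts without and 20, 27, 29 and 46 counts with romidepsin (0.79 ± 0.23, adjusted p = 0.0107). Each PF382 pair was higher with romidepsin, and the call ended with limma-voom (adjusted p = 0.0515) and without the middle pair (0.75, adjusted p = 0.086) or the high pair (0.58, adjusted p = 0.0812). In HH the counts of TNFRSF10A were 0, 3, 4 and 1 without and 2, 7, 10 and 23 with romidepsin. The 42 against 8 counts give a ratio of 5.7 (95% counting interval 2.64 to 14.1), for a fitted change of 2.46 ± 0.45 (adjusted p = 0.000357), and 1.55 without the pair at the high azacitidine dose (adjusted p = 0.0358). H9 had 0.04 ± 0.11 (adjusted p = 0.929) and TLOm1 -0.24 ± 0.13 (adjusted p = 0.161), and the effects were unequal between lines (adjusted p = 0.00041).

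Of the ligands, TNFSF10 rose with romidepsin in PF382 and TLOm1. In PF382 it was at 2.25, 2.53, 3.06 and 4.17 CPM without and 3.01, 5.18, 5.44 and 4.75 CPM with romidepsin (0.62 ± 0.15, adjusted p = 0.00367). TLOm1 had 16.9, 18.8, 13.5 and 11.2 CPM without and 22.7, 25.7, 28.9 and 22.3 CPM with romidepsin (0.73 ± 0.11, adjusted p = 4.43e-05). Each of these 8 pairs was higher with romidepsin, and in TLOm1 the 2 sets did not overlap. In HH the 4 pairs were lower with romidepsin, at log2 ratios from -0.11 to -0.45, but the change of -0.31 ± 0.12 was not called (adjusted p = 0.0582), and was called without the pair at the high dose (-0.39, adjusted p = 0.0245). H9 had -0.02 ± 0.10 (adjusted p = 0.995), and the TNFSF10 effects were unequal (adjusted p = 0.000119).

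FASLG in H9 was at 4.25, 6.17, 10.1 and 6.12 CPM without and 6.79, 11.3, 14.6 and 6.73 CPM with romidepsin, from 110 to 408 counts per library. Each pair was higher with romidepsin (0.56 ± 0.17), which edgeR did not call over all genes (adjusted p = 0.0811). It was called by limma-voom (adjusted p = 0.00537) and by edgeR without the pair at 250 nM azacitidine (0.69, adjusted p = 0.0193). In HH the FASLG call rests on 7 counts with against 0 without romidepsin, at least 2.53-fold higher against a floor of 3 counts over the 4 libraries without it. That call ended in 3 of 4 fits without a pair (adjusted p = 0.101, 0.0883 and 0.0588). TLOm1 had 7 against 1 FASLG counts, a ratio of 7.49 with a counting interval of 0.963 to 338 (adjusted p = 0.0895). FASLG in TLOm1 was called by limma-voom (adjusted p = 0.0261).

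FAS fell with romidepsin in TLOm1 and HH. In TLOm1 it was at 135, 106, 85.0 and 77.0 CPM without romidepsin and 117, 83.7, 61.0 and 32.5 CPM with it (-0.55 ± 0.11, adjusted p = 0.000947). Each pair was lower, and without the pair at 500 nM azacitidine, the one with the largest difference, the change was -0.34 (adjusted p = 0.00103). HH had 24.3, 19.3, 19.4 and 17.6 CPM of FAS without and 19.3, 12.7, 13.9 and 11.4 CPM with romidepsin (-0.50 ± 0.13, adjusted p = 0.00628). The HH call of FAS ended without the pair at 50 nM (-0.47, adjusted p = 0.0516) or at 125 nM (-0.51, adjusted p = 0.0563). PF382 had 0.15 ± 0.14 (adjusted p = 0.45) and H9 0.16 ± 0.11 (adjusted p = 0.494), and the FAS effects were unequal between lines (adjusted p = 0.00208).

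**Figure D3:**
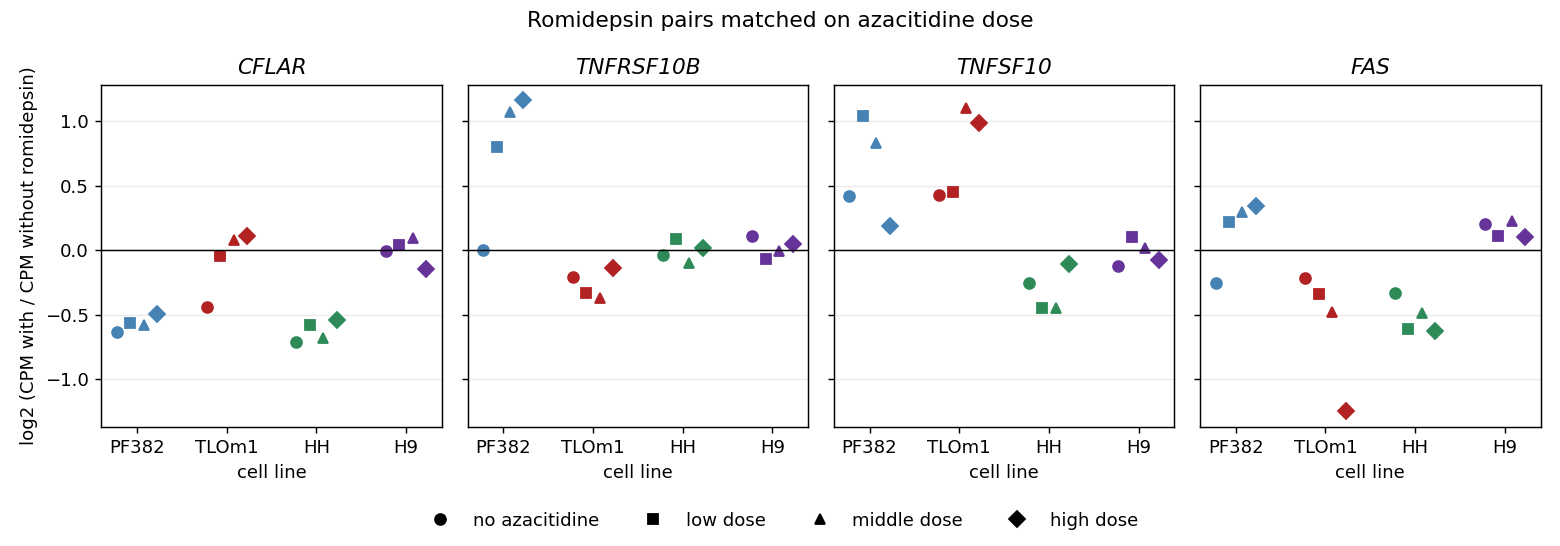
Log2 ratio of CPM with romidepsin to CPM without it for pairs of libraries at the same azacitidine dose, for CFLAR, TNFRSF10B, TNFSF10 and FAS in each line. Each symbol is 1 pair, and its shape gives the azacitidine dose. The 8 CFLAR pairs of PF382 and HH lie below -0.49, and the TNFRSF10B pairs of PF382 go from 0.00 without azacitidine to 1.16 at the high dose.

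Among the caspases, CASP8 rose with romidepsin in TLOm1, where it was at 88.3, 88.5, 88.9 and 99.1 CPM without and 101, 104, 115 and 136 CPM with romidepsin. The 2 sets did not overlap (0.31 ± 0.07, adjusted p = 0.00218), and the other lines had estimates between -0.06 and 0.06, with unequal effects (adjusted p = 0.0243). CASP10 rose in the same line (0.35 ± 0.12, adjusted p = 0.0251). The TLOm1 pair without azacitidine had a CASP10 ratio of -0.12 and those at 125, 250 and 500 nM had 0.42, 0.47 and 0.62. The CASP10 call ended without the pair at 125 nM (0.33, adjusted p = 0.125), 250 nM (0.31, adjusted p = 0.161) or 500 nM (0.26, adjusted p = 0.0825).

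Of the adaptors, FADD had romidepsin estimates between -0.04 and 0.11 in the 4 lines and no call, with adjusted p from 0.334 to 1.00. Its 95% intervals reached down to -0.17 (in PF382) and up to 0.24 (in H9). TRADD was called lower in HH (-0.24 ± 0.09, adjusted p = 0.0477), and the call ended under 7 of 9 alternatives. They were DESeq2's size factors (adjusted p = 0.0641), DESeq2 (0.0745), no count filter (0.0564), a minimum count of 50 (0.0636), and leaving out the TRADD pair at 50 nM (-0.27, 0.0822), 125 nM (-0.19, 0.31) or 250 nM (-0.17, 0.139).

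Azacitidine at any dose was compared with none within each line, 6 libraries against 2, each with or without romidepsin on both sides. In HH the romidepsin library without azacitidine had 1 nM and the 3 with azacitidine had 1.25 nM, so in that part of the HH comparison the doses of both drugs change and cannot be told apart. In HH 3 of the 10 genes were called, TNFRSF10A and CASP10 higher and CFLAR lower, where 5.87% of all genes were called. In TLOm1 2 were called, TRADD higher and FAS lower (18.7% of all genes). In PF382, 0 of 10 were called by edgeR (8.33% of all genes), 3 had an unadjusted p under 0.05 (TNFRSF10B, TNFSF10 and TRADD), DESeq2 called 1, TNFSF10, and limma-voom 0. In H9, 0 were called by edgeR (5.86% of all genes), and 3 had an unadjusted p under 0.05 (FASLG, TNFSF10 and CFLAR), beside 3689 of all genes. DESeq2 and limma-voom called 0 members in H9, beside 1770 and 1328 of all genes. Members' median changes were 0.19, -0.03, -0.07 and 0.10 in PF382, TLOm1, HH and H9, against 0.04, 0.03, 0.02 and 0.01 over all genes. Effects were unequal between lines for 4 members, TNFRSF10A, TRADD, CASP10 and CFLAR, where 10.7% of all genes were called. Without the middle dose none of these 4 was called unequal by edgeR, at adjusted p of 0.268, 0.296, 0.151 and 0.233. That fit has fewer libraries, and the share of all genes called in it is not given. TNFRSF10A was also not called unequal without the highest dose (0.0777) or with no count filter (0.0537), and neither TNFRSF10A (0.052) nor TRADD (0.0691) was with limma-voom.

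CASP10 in HH had the largest azacitidine change among the calls of the 10 genes. It had 7 and 4 counts in the libraries without azacitidine, without and with romidepsin. At 50, 125 and 250 nM it had 19, 92 and 102 counts without romidepsin and 20, 47 and 121 counts with it. All 6 libraries with azacitidine were above both libraries without it, and the 401 against 11 counts give a ratio of 11.9 (95% counting interval 6.57 to 24). The fitted change was 3.52 ± 0.60 (adjusted p = 0.000931), and the call did not end under any of its 9 alternatives. At 250 nM CASP10 in HH reached 4.29 and 5.62 CPM, below the lowest library of the other lines, 7.37 CPM in PF382. The other lines had 0.19 ± 0.34 (PF382, adjusted p = 0.787), 0.32 ± 0.34 (TLOm1, adjusted p = 0.522) and -0.29 ± 0.32 (H9, adjusted p = 0.667), and CASP10 effects were unequal (adjusted p = 0.00627).

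TNFRSF10A, the other gene near the detection limit in HH, had 2 counts in the 2 HH libraries without azacitidine and 48 in the 6 with it. Of these, the libraries without romidepsin had 0 counts untreated and 3, 4 and 1 counts at 50, 125 and 250 nM. The ratio was 7.82 with a counting interval of 2.05 to 66.4 (fitted 2.84 ± 0.66, adjusted p = 0.0112). The effects of azacitidine on TNFRSF10A were unequal between lines (adjusted p = 0.0436). The call of TNFRSF10A ended without the middle dose (2.93, adjusted p = 0.114). CFLAR in HH fell by 0.46 ± 0.09 (adjusted p = 0.0047), from 185 to between 124 and 137 CPM without romidepsin and, where the romidepsin dose also rose, from 113 to between 79.1 and 94.2 CPM with it. Its call ended without the middle dose (-0.42, adjusted p = 0.132). H9 had 0.22 ± 0.10 for CFLAR (adjusted p = 0.202), and CFLAR effects were unequal between lines (adjusted p = 0.0107). Without the romidepsin term, the HH calls of TNFRSF10A and CFLAR ended (adjusted p = 0.132 and 0.268).

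In TLOm1, FAS fell by 0.79 ± 0.20 with azacitidine (adjusted p = 0.00809) and TRADD rose by 0.55 ± 0.12 (adjusted p = 0.00264). TRADD was at 22.1 CPM untreated and 24.8, 31.5 and 35.2 CPM at 125, 250 and 500 nM, and at 17.9, 26.4, 27.6 and 30.2 CPM in the same order with romidepsin. All 6 treated libraries were above the 2 without azacitidine. Both calls ended without the middle dose, FAS at -0.79 (adjusted p = 0.104) and TRADD at 0.55 (adjusted p = 0.0592). TRADD effects were unequal between lines (adjusted p = 0.027), with 0.32 ± 0.12 in PF382 (adjusted p = 0.0982) and -0.13 ± 0.11 in HH (adjusted p = 0.573). TNFSF10 had 0.66 ± 0.22 in PF382 (adjusted p = 0.0591), and was called there by DESeq2 (adjusted p = 0.0232) and without the low dose (0.73, adjusted p = 0.0264) or the high dose (0.60, adjusted p = 0.036). TRADD in PF382 was called without the low dose (0.36, adjusted p = 0.0496). Without the high dose, FASLG (0.93, adjusted p = 0.0256) and TNFSF10 (0.47, adjusted p = 0.00733) were called in H9.

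The dose dependence within lines was fitted as a change per doubling of azacitidine over the 3 doses. With 1 slope common to the 4 lines, FAS was the 1 member called, at -0.20 ± 0.05 per doubling (adjusted p = 0.00242), where 30.7% of all genes were called. The FAS slope was -0.13 without TLOm1 (adjusted p = 0.0111). CASP10 was called without H9 (0.32, adjusted p = 0.0231), and CASP8 (0.06 ± 0.03, adjusted p = 0.0849) without HH (0.10, adjusted p = 0.00883). With a slope for each line, a model chosen after seeing the data, 1 member was called in PF382 (18.0% of all genes), 6 in TLOm1 (35.6%), 1 in HH (16.7%) and 1 in H9 (13.0%). FAS had -0.43 ± 0.07 per doubling in TLOm1 (adjusted p = 0.000103), -0.19 ± 0.06 in H9 (adjusted p = 0.0389), -0.12 ± 0.10 in PF382 (adjusted p = 0.44) and -0.05 ± 0.08 in HH (adjusted p = 0.71).

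CASP10 in HH had the steepest slope, at 0.96 ± 0.10 per doubling (adjusted p = 1.56e-07), and TNFRSF10B in PF382 had 0.52 ± 0.08 (adjusted p = 0.000138). The other 5 slopes called in TLOm1 were those of TNFSF10 (-0.23 ± 0.07), FADD (-0.20 ± 0.04), CFLAR (-0.14 ± 0.05), TRADD (0.17 ± 0.06) and CASP8 (0.14 ± 0.05). Their adjusted p were 0.0173, 0.000597, 0.0142, 0.022 and 0.0235. FADD, called in no other test of a treatment, went in TLOm1 from 36.1 to 33.8 and 26.4 CPM over the 3 doses without romidepsin, and from 37.6 to 33.5 and 29.5 CPM with it. In TLOm1 the slopes over the 3 doses were thus negative for FAS, TNFSF10, FADD and CFLAR and positive for TRADD and CASP8. From none to 500 nM, TNFSF10 was at 16.9, 18.8, 13.5 and 11.2 CPM without romidepsin and 22.7, 25.7, 28.9 and 22.3 CPM with it. CFLAR was at 142, 122, 108 and 94.7 CPM without and 105, 118, 114 and 102 CPM with romidepsin. Azacitidine at any dose against none was not called in TLOm1 for TNFSF10 (-0.02, adjusted p = 0.954) or CFLAR (-0.16, 0.226).

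**Figure D4:**
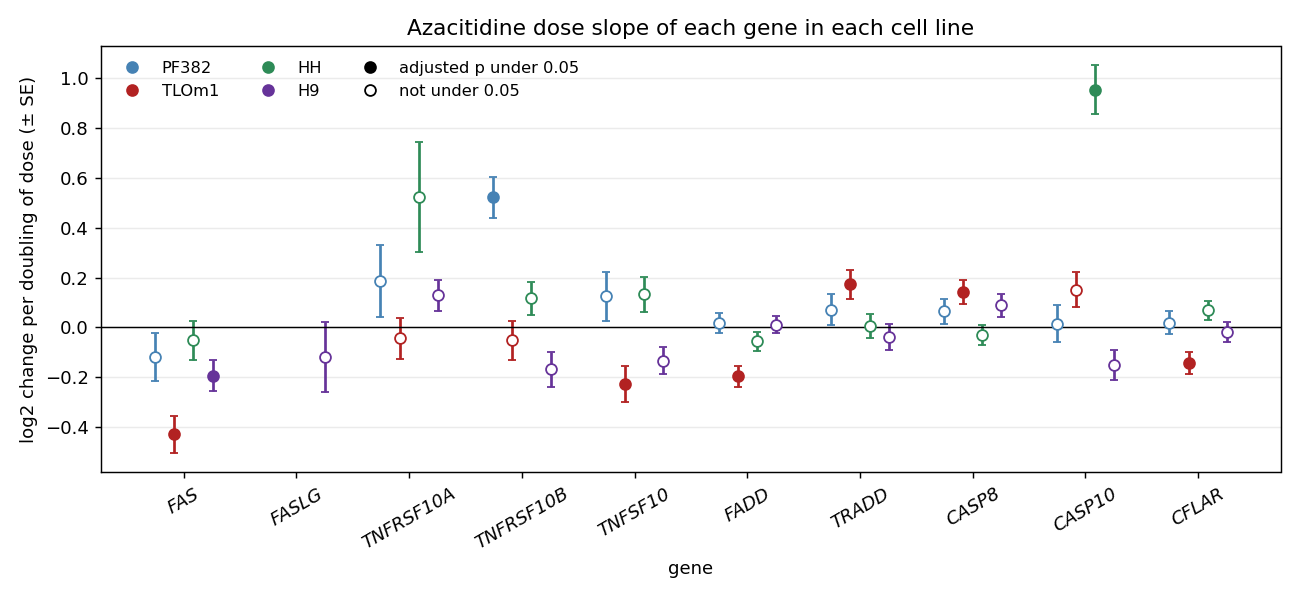
Change per doubling of the azacitidine dose (log2, ± standard error) of each gene in each line, from the model with a slope for each line, filled where the adjusted p is under 0.05. Of the called slopes, CASP10 in HH (0.96) and TNFRSF10B in PF382 (0.52) lie highest and FAS in TLOm1 (-0.43) lowest.

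Over the 4 lines together few members were called. The comparisons with untreated cells share the 4 untreated libraries. The combination with azacitidine at 250 nM, the highest dose that all lines received, had 2 of 10 lower and 0 higher against untreated cells, where 23.0% of all genes were called. FAS fell by 0.65 ± 0.22 (adjusted p = 0.0367), from 8.86, 135, 24.3 and 117 CPM in untreated PF382, TLOm1, HH and H9 to 9.37, 61.0, 11.4 and 89.9 CPM. It was lower in 3 of 4 lines, and its call ended without TLOm1 (-0.46, adjusted p = 0.135), HH (-0.52, 0.199) or H9 (-0.74, 0.0868), and in a fit of the compared groups alone (-0.65, 0.203). CFLAR fell by 0.48 ± 0.17 (adjusted p = 0.0421), from 39.8, 142, 185 and 38.5 CPM to 26.3, 114, 94.2 and 40.8 CPM in the same order of lines. CFLAR was also lower in 3 of 4 lines, and it was no longer called without PF382 (-0.45, adjusted p = 0.141), TLOm1 (-0.54, 0.0761) or HH (-0.29, 0.242). It ended as well with DESeq2's size factors (-0.45, 0.0532), limma-voom (-0.47, 0.0513), no count filter (-0.48, 0.0519) and the compared groups alone (-0.46, 0.231). The remaining 8 genes had adjusted p from 0.112 (TNFSF10, 0.52 ± 0.23) to 0.893 (TNFRSF10B), and the median change of the 10 was 0.12, against 0.04 over all genes.

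The other comparisons of treatment groups over the 4 lines had 0 of 10 members called by edgeR and by DESeq2. Romidepsin alone called 0.0169% of all genes, and CFLAR (-0.47 ± 0.17, adjusted p = 0.686) had the 1 unadjusted p under 0.05, with 0 members by limma-voom. CFLAR was lower after romidepsin alone in 4 of 4 lines, though in H9 only from 38.5 to 38.4 CPM. Azacitidine at 125 nM called 0.461% of all genes, with 0 members by limma-voom. An unadjusted p under 0.05 was found there for 0 members and 1763 of all genes. Azacitidine at 250 nM called 5.99%, with 0 members by limma-voom. FAS was the 1 member with an unadjusted p under 0.05 at 250 nM (-0.48 ± 0.22, adjusted p = 0.205), beside 3822 of all genes. The combination at 125 nM called 7.00% of all genes, and 4041 genes had an unadjusted p under 0.05. Among members, FASLG, TNFSF10 and CFLAR did (3 members). Of these, FASLG was called by limma-voom (1.74, adjusted p = 0.0484) and CFLAR without H9 (-0.67, adjusted p = 0.0453).

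Romidepsin added to azacitidine at 250 nM called 5.67% of all genes, with 0 members by limma-voom. An unadjusted p under 0.05 was found there for 0 members and 3909 of all genes. Azacitidine at 250 nM added to romidepsin called 14.1%, with 0 members by limma-voom. FAS was the 1 member with an unadjusted p under 0.05 (-0.51 ± 0.22, adjusted p = 0.123), beside 5287 of all genes. FAS was called in that comparison without PF382 (-0.75, adjusted p = 0.0122), and at the highest dose of each line (-0.75, adjusted p = 0.0132). The test of additivity, of the combination's change against both single-drug changes added, called 0.00% of all genes, with 0 genes by edgeR, DESeq2 and limma-voom and 596 at an unadjusted p under 0.05, 0 of them members. In HH this test, like azacitidine added to romidepsin, sets romidepsin alone at 1 nM against combinations at 1.25 nM, which cannot be told apart from a departure. For FAS the departure was -0.03 (95% interval -0.68 to 0.62) and for CFLAR 0.18 (-0.31 to 0.67), intervals that leave room for departures of the size of the changes themselves.

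The genes whose pattern was most like that of FAS and CFLAR were found by Pearson's correlation of log2 CPM over the 32 libraries after line means were removed. For FAS they were NFKB1, the p105 and p50 subunit of NF-kB (r = 0.91, Spearman's rho 0.763), HCN3 (0.895 and 0.841) and ZNF706 (0.889 and 0.824). For CFLAR they were CFLAR-AS1, its antisense gene (0.881 and 0.867), CLIC1 (0.81 and 0.776) and the phosphatase gene PTPN1 (0.803 and 0.757). These correlations are descriptions of libraries that share lines and treatments. Among pairs of members the largest in size was that of TNFRSF10A with CFLAR (-0.692). It rests in part on few counts, as TNFRSF10A had 50 counts in the 8 libraries of HH and 193 in those of PF382.

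CFLAR-AS1 overlaps CFLAR, and the strand setting of the counting is not given in the sources used here, so reads of the pair cannot be told apart where they overlap. CFLAR-AS1 fell with romidepsin in HH (-1.08 ± 0.13, adjusted p = 2.34e-06) and PF382 (-0.48 ± 0.17, adjusted p = 0.0329) and with azacitidine in HH (-0.67 ± 0.16, adjusted p = 0.0138), as CFLAR did. It was at 5.11 to 19.6 CPM in HH and 1.39 to 2.59 CPM in PF382, below CFLAR in each library by count. FAS overlaps FAS-AS1 (at most 50 counts in a library) and ACTA2. In H9, ACTA2 was at 1147 to 2256 CPM, far above FAS, and it fell with azacitidine there (-0.60 ± 0.18, adjusted p = 0.0445), where FAS had a called negative dose slope. In TLOm1, ACTA2 was at 24.4 to 38.1 CPM, and in HH, where FAS fell with romidepsin, ACTA2 rose (0.58 ± 0.12, adjusted p = 0.00102). TNFRSF10B overlaps RHOBTB2. RHOBTB2 rose with romidepsin in PF382 (0.59 ± 0.09, adjusted p = 2.49e-05), as TNFRSF10B did, and with azacitidine there (0.95 ± 0.19, adjusted p = 0.00307). In HH RHOBTB2 rose with romidepsin (0.49 ± 0.09, adjusted p = 0.00034), where TNFRSF10B had -0.01. The part of overlapping reads in these results was not tested.

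Beyond the 10 members, 58 other pathway genes were listed, of which 56 were in the tables and 52 were tested. With romidepsin, 18 of 52 were called in PF382 (10 higher, 8 lower), 22 in TLOm1 (8 and 14), 17 in HH (9 and 8) and 1 in H9. These are 34.6, 42.3, 32.7 and 1.92% of the list, beside 30.7, 32.6, 27.7 and 4.47% of all genes. The H9 gene was TNFRSF1B (0.52 ± 0.14, adjusted p = 0.0347), whose call ended without the low pair (0.55, 0.187) or the middle pair (0.52, 0.298). In HH, BID, which carries the signal of caspase-8 to mitochondria, rose by 1.25 ± 0.15 over the dose-matched pairs (adjusted p = 3.10e-06). In the HH pair without azacitidine, BID had few and similar counts with and without romidepsin, given below. TNFAIP3, the NF-kB inhibitor A20, fell in HH by 0.88 ± 0.08 (adjusted p = 9.12e-08). In TLOm1, TRAF3, an adaptor of TNF receptors, fell by 0.52 ± 0.06 (adjusted p = 6.45e-06), from 97.0, 91.9, 102 and 107 CPM to 71.7, 76.4, 70.1 and 60.5 CPM. In PF382, TNFRSF1B, which encodes TNF receptor 2, had 7, 5, 11 and 13 counts without and 9, 46, 86 and 203 counts with romidepsin (3.20 ± 0.38, adjusted p = 7.00e-06). Without the middle pair of each line, 11 other pathway genes were called in PF382 and 12 in TLOm1. That fit has fewer libraries, and the share of all genes called in it is not given.

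With azacitidine, 5 of the 52 other pathway genes were called in PF382 (5 higher), 11 in TLOm1 (8 higher, 3 lower), 7 in HH (5 and 2) and 5 in H9 (3 and 2). These are 9.62, 21.2, 13.5 and 9.62% of the list, beside 8.33, 18.7, 5.87 and 5.86% of all genes. Without the middle dose 1, 0, 2 and 0 of them were called, and without the lowest dose 11, 18, 15 and 10. These fits have fewer libraries. The share of all genes called in them is not given, so these counts cannot be set against the background. In HH, BID went from 16 and 14 counts without azacitidine to 158 and 275 counts at 250 nM (3.25 ± 0.62, adjusted p = 0.00279, and 0.0703 without the middle dose). TRAF1, a signalling adaptor and NF-kB target, fell in HH from 1109 to 439 CPM without romidepsin and from 596 to 199 CPM with it (-1.29 ± 0.19, adjusted p = 0.000268). In TLOm1, TNFRSF10D, a TRAIL receptor without a working death domain, had 0 counts in the 2 libraries without azacitidine and 209 in the 6 with it, at least 23.3-fold higher. Its call in TLOm1 (adjusted p = 0.0152) ended without the middle dose (0.0934).

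Over the 4 lines, 9 of the 52 other pathway genes were called in the combination at 250 nM (8 higher, 1 lower), 3 without HH and 4 without H9. The 9 are 17.3% of the list, beside 23.0% of all genes. TNF, the ligand of TNF receptor 1, rose by 1.15 ± 0.27 (adjusted p = 0.00456), from 8.33, 1.45, 1.75 and 27.4 CPM in untreated PF382, TLOm1, HH and H9 to 30.7, 1.83, 4.64 and 42.9 CPM. TNF was higher in 4 of 4 lines. Leaving out PF382 ended the TNF call (0.83, adjusted p = 0.0575). With dose, 13 other pathway genes had a called common slope (9 higher, 4 lower), 25% of the list beside 30.7% of all genes. Without TLOm1, 5 did. For the counts without HH, H9 or TLOm1 the share of all genes called is not given. TNF had 0.37 ± 0.07 per doubling (adjusted p = 0.000506) and MLKL, the effector of necroptosis, -0.23 ± 0.05 (adjusted p = 0.000589).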

How the data were processed

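Whole-number read counts per gene symbol were deposited by the authors for 32 libraries, 1 per treatment and line. STAR, DESeq2 and limma and the build GRCh37.p2 appear without role in the submitters' processing notes. Which program counted the reads, on which annotation and strand, is not given in the sources used here. Per the labels' protocols, RNA was taken at 96 hours and libraries came from a stranded mRNA kit, though both poly(A) selection and ribosomal RNA depletion are named. Combination titles state bare dose numbers, read here as nM, and 1 PF382 title is misspelled, so its cell line label was followed.

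Genes passing filterByExpr of edgeR (minimum count 10, minimum total 15) were kept, 17801 in all. TMM scaling (factors 0.9324 to 1.153) and edgeR 4.0.16's quasi-likelihood test in R 4.3.3 were used, with Benjamini-Hochberg adjustment over all genes tested. Comparisons over the 4 lines fitted 10 treatment groups and the cell line (19 residual degrees of freedom). Models within lines compared romidepsin (12 residual degrees of freedom) or azacitidine (20), with the other drug as a term, although in HH romidepsin was at 1 nM alone and at 1.25 nM beside azacitidine. The dose slope had 18, and 15 with a slope for each line. The groups are paired by cell line, which the labels give: deviations from the group means correlated at 0.86 to 0.973 in 60 same-line pairs. No libraries held identical values. Alternatives were DESeq2's size factors, DESeq2 1.42.0, limma-voom (limma 3.58.1), no count filter, a minimum count of 50, doses by order, the compared groups alone, fits without the line or romidepsin term, and leaving out each line, pair or dose. The scripts were tested on simulated data. The members and gene lists were chosen with earlier results of these data known. Genes named are the members, the overlapping genes, the 3 most like FAS and CFLAR, and examples among the first 4 other pathway genes by p-value in a comparison, with TNFRSF10D chosen after its values were seen. Gene coordinates are left out because the reference at hand was of another build than the counts. Intervals of ratios and floors of 3 counts cover counting error only.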

Additional observations from a re-analysis of the deposited data

Results flagged for a closer look

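FASLG was far above the other lines in H9 in each of the 6 treatments that all 4 lines share. It was at 4.25 CPM untreated, 6.79 CPM with romidepsin, 10.1 and 6.12 CPM with azacitidine at 125 and 250 nM, and 14.6 and 6.73 CPM with the combinations at those doses. TNFSF10 stood apart in H9 in 4 treatments, at 96.7 CPM untreated, 129 and 104 CPM with azacitidine at 125 and 250 nM, and 131 CPM with the combination at 125 nM. Of 60 groups of 4 lines tested for a value far from the others, 10 had one, all in H9 and for these genes. FASLG had 0, 8 and 7 counts in all in PF382, TLOm1 and HH and 1705 in H9. It passed the count filter only through H9, so its flags were fixed in advance and are no separate evidence. Chance flags about 1 in 20 independent groups, and these groups repeat the same 4 lines, so the counts cannot be set against each other.

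The effect of romidepsin differed between lines for 6 members by edgeR's test of the interaction, where 33.0% of all genes were called. The adjusted p was 0.00208 for FAS, 0.00041 for TNFRSF10A, 0.000349 for TNFRSF10B, 0.000119 for TNFSF10, 0.0243 for CASP8 and 7.10e-05 for CFLAR. Without the middle pair of each line the calls of FAS (adjusted p = 0.0594) and CASP8 (0.17) ended, and that of CASP8 also without the low or the high pair. The effect of azacitidine differed for 4 members by the same test, where 10.7% of all genes were called. The adjusted p was 0.0436 for TNFRSF10A, 0.027 for TRADD, 0.00627 for CASP10 and 0.0107 for CFLAR. Without the middle dose none of these 4 was called unequal. TNFRSF10A in HH and CASP10 in HH were measured from few counts without azacitidine, 2 and 11 in 2 libraries. Doses of both drugs differed between lines, so line and dose cannot be told apart in either test.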

How the results depend on the processing

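Of 168 member results with a direction, 21 were called, and of their 195 alternatives 158 kept the call, 37 ended it and 0 changed sign. Of 1518 alternatives of results not called, 21 gave a call with the same sign, and 14 changed sign by more than a standard error without a call, such as CASP10 with azacitidine at 250 nM (0.41, and -0.23 without HH). For the combination at 250 nM, with 2 members called, 1 was called with DESeq2's size factors, limma-voom or no count filter, 0 with the compared groups alone, and 0 to 1 without a line. Without the replicate block (no cell line term), 0 members were called there, with FAS at -0.73 and CFLAR at -0.56 (adjusted p = 0.9999 for each). For the combination at 125 nM, with 0 called, limma-voom called 1, and fits without a line 0 to 1. For azacitidine added to romidepsin, with 0 called, the highest dose of each line gave 1, and fits without a line 0 to 1. For the common dose slope, with 1 called, DESeq2's size factors, DESeq2 and a minimum count of 50 each gave 2, the slope of TLOm1 alone, chosen after seeing the data, gave 6, and fits without a line 1 to 2.

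Without 1 pair of libraries, romidepsin gave 3 to 4 calls in PF382, 3 to 5 in TLOm1, 2 to 4 in HH, 0 to 1 in H9 (1 with limma-voom) and 4 to 6 for unequal effects. Without 1 dose, azacitidine gave 0 to 2 calls in PF382 (1 with DESeq2), 0 to 2 in TLOm1, 1 to 3 in HH and 0 to 2 in H9. Its unequal effects gave 0 to 4 calls without 1 dose, and 2 with limma-voom. Without the replicate block of romidepsin, azacitidine gave 1 call in HH and 1 for unequal effects. Fits without a line, pair or dose have fewer libraries, and the share of all genes called in them is not given. The causes were not tested. Depth limits FASLG outside H9, TNFRSF10A in HH and PF382, and CASP10 in HH without azacitidine.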
